A study of Mus musculus with 2 samples.

Results

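The innate sensor genes Tlr2, Tlr3, Tlr4, Tlr7, Tlr13, Cd14, Myd88, Nlrp3, Pycard and Casp1 were followed in mouse hearts under pressure overload. These 10 genes were taken by symbol through the GENCODE M21 annotation, and all 10 were found among the 55401 gene identifiers counted. Hearts came from C57BL/6 mice that had undergone transverse aortic constriction (TAC), an operation that partly ties off the aortic arch so that the left ventricle pumps against high pressure. The dioscin group had TAC and then dioscin, a steroidal saponin of yam plants, for 4 weeks (1 library). The TAC group had the same surgery and no dioscin according to its treatment label (1 library). The treatment protocol of both samples carries the same wording, so this label alone sets them apart. The sources used here give neither age nor sex of the mice, nor the number of hearts behind each library, and no heart without surgery was analysed here. With 1 library a group no test across animals was possible, so every comparison below is between these libraries and not between treatments.

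Toll-like receptors are membrane proteins that recognise microbial molecules and products of injured tissue. TLR2 and TLR4 sit on the cell surface, CD14 hands ligands to them, and TLR3, TLR7 and TLR13 read RNA inside endosomes. Of these receptors all but TLR3 signal through the adaptor MYD88 to NF-kappaB, which drives cytokine genes. Inflammasomes act in the cytosol, where the sensor NLRP3 joins the adaptor ASC (gene Pycard) and activates caspase-1 (gene Casp1), the protease that matures interleukin-1 beta. In the heart these genes are carried mainly by macrophages and other leukocytes, with TLR3, TLR4 and MYD88 also found in muscle, endothelial cells and fibroblasts.

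Promoter windows of 300 bases, 250 before and 50 after the start site, were held in RefSeq's table on GRCm38.p6 for Tlr2, Tlr3, Tlr13, Myd88, Nlrp3, Pycard and Casp1, that is 7 of the 10 genes (8 windows). Windows of Tlr2, Tlr3 and Myd88 are printed 5′ to 3′ because they carry the NF-kappaB or interferon motif letters that bear on the pathway described here, in 2 receptors whose counts lay on opposite sides of a ratio of 1 and in the shared adaptor. Capitals mark matches to the NF-kappaB pattern (GGGA, any 4 bases, CC) in Tlr2 (chr3:83841559-83841858, minus strand) and Tlr3 (chr8:45410331-45410630, minus strand), and to the core of the interferon-stimulated response element (GAAA, any 2 bases, GAAA) in Myd88 (chr9:119339969-119340268, minus strand).
Tlr2: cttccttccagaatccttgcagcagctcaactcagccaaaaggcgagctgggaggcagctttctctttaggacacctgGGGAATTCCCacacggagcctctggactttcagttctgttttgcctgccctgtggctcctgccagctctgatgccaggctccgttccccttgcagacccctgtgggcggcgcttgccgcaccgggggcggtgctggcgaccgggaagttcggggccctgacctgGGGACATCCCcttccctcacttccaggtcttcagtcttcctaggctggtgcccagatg
Tlr3: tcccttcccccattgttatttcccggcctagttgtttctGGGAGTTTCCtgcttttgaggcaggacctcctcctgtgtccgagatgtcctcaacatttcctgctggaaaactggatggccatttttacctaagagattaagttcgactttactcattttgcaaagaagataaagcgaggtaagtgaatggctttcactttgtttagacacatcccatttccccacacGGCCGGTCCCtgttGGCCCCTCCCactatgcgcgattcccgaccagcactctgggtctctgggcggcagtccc
Myd88: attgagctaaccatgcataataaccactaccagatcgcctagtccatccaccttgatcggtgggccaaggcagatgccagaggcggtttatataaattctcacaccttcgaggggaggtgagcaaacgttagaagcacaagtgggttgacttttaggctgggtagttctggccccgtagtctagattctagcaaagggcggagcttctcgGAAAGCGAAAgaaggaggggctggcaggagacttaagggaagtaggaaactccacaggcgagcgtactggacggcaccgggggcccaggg

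The NF-kappaB letters were found, on either strand, at 2 places in the Tlr2 window, at 3 in the Tlr3 window and at 1 in a Nlrp3 window, and in 20.7% of all 32851 promoter windows. The interferon element letters were found in the Myd88 window alone among the 7 genes, from base -40 to base -31 relative to the start site, and in 3.44% of all windows. GAGGAA, the core read by the myeloid factor PU.1, was found in windows of Casp1, Nlrp3, Pycard and Tlr13 and in 28.3% of all windows. TGANTCA, the AP-1 motif, was in none of the 8 windows and in 7.81% of all. No place found for 1 of these patterns was shared with another. These are letter matches and show no binding.

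The deposited counts summed over genes to 17612259 in the dioscin library and 16782741 in the TAC library. Mitochondrially encoded genes took 25.5% of them in the dioscin library and 31.6% in the TAC library. The labelled tissue was checked on 8 cardiomyocyte markers, which summed to 51267 CPM (counts scaled by TMM and given per mega-count) in the dioscin library and 48394 CPM in the TAC library, and all 8 were within 2-fold. The dioscin library stood apart in 6 atrial muscle markers, which summed to 17319 CPM there and 592 CPM in the TAC library. Nppa alone gave 588 CPM of the TAC sum. Myl7 had 30109 counts with dioscin and 13 in TAC, and Myl4 had 33721 with dioscin and 55 in TAC. Mybphl was at 0 in TAC, as was Bmp10, which had 3 counts with dioscin. The dioscin library also stood apart in 7 mesothelial markers, at 142 CPM with dioscin and 18.1 CPM in TAC (Krt8 and Krt18 at 0 in TAC). So it did in 6 fat cell markers, at 30.7 CPM with dioscin and 0.811 CPM in TAC (Cidec, Plin1 and Lep at 0 in TAC, Lep at 0 in dioscin too). How far such a difference in tissue bears on the innate genes was not tested. A gene is called higher or lower below if it reached 1 CPM in at least 1 library, differed at least 2-fold, and had a 95% counting interval that excluded a ratio of 1 (the size rule). Of 15697 genes at 1 CPM, 19.3% passed, 10.5% as higher and 8.77% as lower in the dioscin library. When libraries were scaled on counts outside the mitochondrial genome, every log2 ratio shifted by -0.21 and the split was 7.71% higher and 13.8% lower.

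Of the 10 innate genes, 9 reached 1 CPM, 1 was higher (Tlr7) and none was lower, against the 10.5% and 8.77% of all genes. Their ratios lay on both sides of 1. Tlr4, Tlr2 and Tlr7 had more counts in the dioscin library by an interval above 1. That of Tlr2 included 1 under some of the other scalings. Tlr3, Myd88, Casp1 and Pycard had fewer counts by an interval below 1. An interval above 1 was found for 35.1% of all genes and one below 1 for 32.1%, so that such intervals were common in this pair of libraries. The median log2 ratio of the 9 genes was 0.03, beside 0.01 over all genes at 1 CPM. In RNA of a whole tissue sample, differences in the tissue taken, in the number of cells of a type and in RNA per cell cannot be told apart.

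Tlr4, the receptor of bacterial lipopolysaccharide (ENSMUSG00000039005.13, chromosome 4, 66827584 to 66930284 on GRCm38), had 223 counts or 13.0 CPM in the dioscin library, against 144 counts or 8.34 CPM in the TAC library. The ratio was 1.56 (95% counting interval 1.26 to 1.94), short of 2-fold. Tlr2, which binds bacterial lipoproteins together with TLR1 or TLR6 (ENSMUSG00000027995.10, chromosome 3, 83836272 to 83841767), had 87 counts or 5.08 CPM with dioscin and 62 counts or 3.59 CPM in TAC. Its ratio of 1.41 (1.01 to 1.99) had a lower limit just above 1, which fell below 1 when libraries were scaled to total counts, upper quartiles or counts outside the mitochondrial genome. Both surface receptors thus had ratios above 1 and short of 2-fold, and the interval of Tlr2 excluded 1 only under some scalings. Cd14, the co-receptor that delivers lipopolysaccharide (ENSMUSG00000051439.7, chromosome 18, 36725067 to 36726798), had 103 counts with dioscin and 102 in TAC, or 6.02 CPM with dioscin and 5.91 CPM in TAC. Its ratio was 1.02 (0.767 to 1.35), and its log2 ratio took values between -0.18 and 0.03 under the other scalings and pseudocounts, so no direction is given for Cd14.

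**Figure D1:**
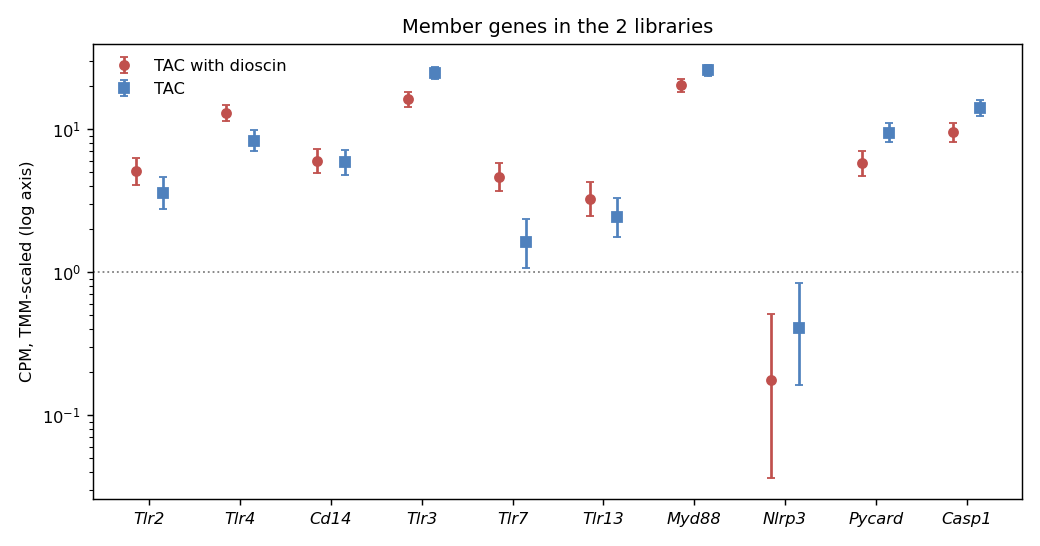
Level of each innate gene in TMM-scaled CPM (log axis) in the library of TAC with dioscin (circles, left) and of TAC (squares, right), with bars for the 95% Poisson interval of the count and a dotted line at 1 CPM. Tlr7 stands at 4.67 CPM with dioscin and 1.62 CPM in TAC, and Nlrp3 lies below 1 CPM in both libraries.

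Among the endosomal receptors the genes differed in direction. Tlr7, a receptor for single-stranded RNA (ENSMUSG00000044583.13, chromosome X, 167304929 to 167330558), had 80 counts or 4.67 CPM in the dioscin library, against 28 counts or 1.62 CPM in the TAC library. It was 2.85-fold higher (1.85 to 4.61), the only innate gene of the 10 past the size rule, and its lower limit lay under 2-fold. Its ratio exceeded that of 94.6% of all genes at 1 CPM. Tlr13, a mouse receptor for bacterial ribosomal RNA (ENSMUSG00000033777.4, chromosome X, 106143204 to 106160493), had 56 counts or 3.27 CPM with dioscin and 42 counts or 2.43 CPM in TAC. Its ratio of 1.34 (0.886 to 2.06) did not exclude 1. Tlr3, the receptor for double-stranded RNA (ENSMUSG00000031639.12, chromosome 8, 45395665 to 45411080), had 277 counts or 16.2 CPM in the dioscin library and 427 counts or 24.7 CPM in the TAC library. It was 1.53-fold less abundant (1.31 to 1.78) with dioscin, within the 2-fold limit. An opposite-strand antisense gene covers 7.32% of the exonic length of Tlr3. Per kb of exonic length, Tlr3 exceeded Tlr7 2.702-fold (2.11 to 3.53) in the dioscin library and 11.8-fold (8.15 to 18.2) in the TAC library. Tlr7 and Tlr13 are X-linked, and the X-inactivation RNA Xist had 9 counts with dioscin and 23 in TAC while Y-linked genes summed to 4635 counts with dioscin and 4805 in TAC, so both libraries held Y-linked transcripts.

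Myd88, the adaptor shared by most of these receptors (ENSMUSG00000032508.8, chromosome 9, 119335934 to 119341411), had 348 counts or 20.3 CPM in the dioscin library, against 446 counts or 25.8 CPM in the TAC library. Its ratio was 0.787 (0.682 to 0.908). An opposite-strand gene, Acaa1a, covers 11.3% of its exonic length, and reads of such a pair cannot be told apart with this library kit unless the counting left them out as ambiguous. The inflammasome adaptor gene Pycard (ENSMUSG00000030793.4, chromosome 7, 127989708 to 127993867) had 99 counts or 5.78 CPM with dioscin and 164 counts or 9.50 CPM in TAC. It was 1.64-fold less abundant (1.27 to 2.13) with dioscin, the largest difference in that direction among the 9 genes at 1 CPM, and a predicted opposite-strand gene covers 12.8% of its exonic length. Casp1, which encodes the inflammasome protease (ENSMUSG00000025888.6, chromosome 9, 5298517 to 5307265), had 163 counts or 9.52 CPM with dioscin and 245 counts or 14.2 CPM in TAC, a ratio of 0.672 (0.547 to 0.822). Pycard and Casp1 thus differed in the same direction and by similar factors, both inside 2-fold. Per kb, Pycard stood at 0.240 times Casp1 (0.184 to 0.309) in the dioscin library and at 0.264 times Casp1 (0.215 to 0.323) in the TAC library.

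Nlrp3, the sensor of the best-known inflammasome (ENSMUSG00000032691.14, chromosome 11, 59541568 to 59566956), had 3 counts or 0.175 CPM in the dioscin library and 7 counts or 0.405 CPM in the TAC library. The ratio of 0.471 had an interval of 0.0721 to 1.89. That interval spans 1 and values far below it, so a several-fold lower level with dioscin was not detectable at this depth.

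**Figure D2:**
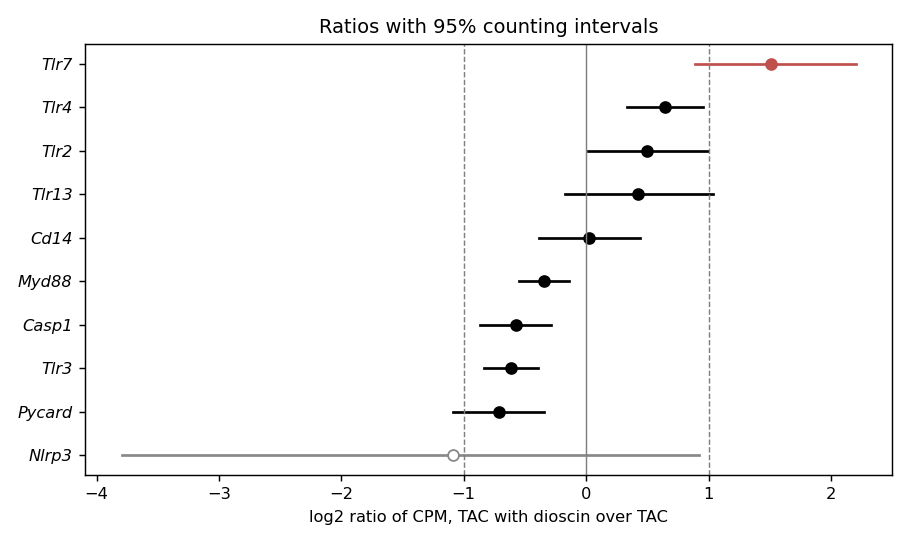
Log2 ratio of each innate gene, TAC with dioscin over TAC, as a point with its 95% counting interval, with dashed lines at 2-fold in each direction. Tlr7 alone lies past 2-fold with an interval that excludes 1, at 1.51, and Pycard, Tlr3, Casp1 and Myd88 lie between -0.71 and -0.34. The open point is Nlrp3, below 1 CPM.

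Levels between genes were compared as CPM per kb of exonic length. In the dioscin library Myd88 stood highest at 7.89 and Casp1 followed at 6.36, with overlapping counting intervals. Cd14 at 3.47 and Tlr3 at 3.11 came next and overlapped, then Tlr4 at 2.35, Tlr2 at 1.69, Pycard at 1.52, Tlr7 at 1.15 and Tlr13 at 0.760. From Tlr4 to Tlr13 each neighbouring pair overlapped, and Tlr3 and Tlr4 did not. Nlrp3 was last at 0.0432. In the TAC library Myd88 was at 10.03 and Casp1 at 9.48, again overlapping, followed by Tlr3 at 4.75, which was above Cd14 at 3.41 with no overlap. Pycard at 2.50 followed and its interval overlapped that of Cd14, then Tlr4 at 1.501 and Tlr2 at 1.19, which overlapped each other. Tlr13 at 0.565 and Tlr7 at 0.397 overlapped too, and Nlrp3 was at 0.0999. The order of the values thus differed between the libraries in the places of Tlr3 against Cd14, of Pycard against Tlr4 and Tlr2, and of Tlr7 against Tlr13. Of these pairs, only Pycard and Tlr4 had intervals that stayed apart in both libraries. Against all genes at 1 CPM, Myd88 stood at the 71.7th percentile with dioscin and the 78.6th in TAC, whereas Tlr7 stood at the 22.4th with dioscin and the 7.67th in TAC.

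**Figure D3:**
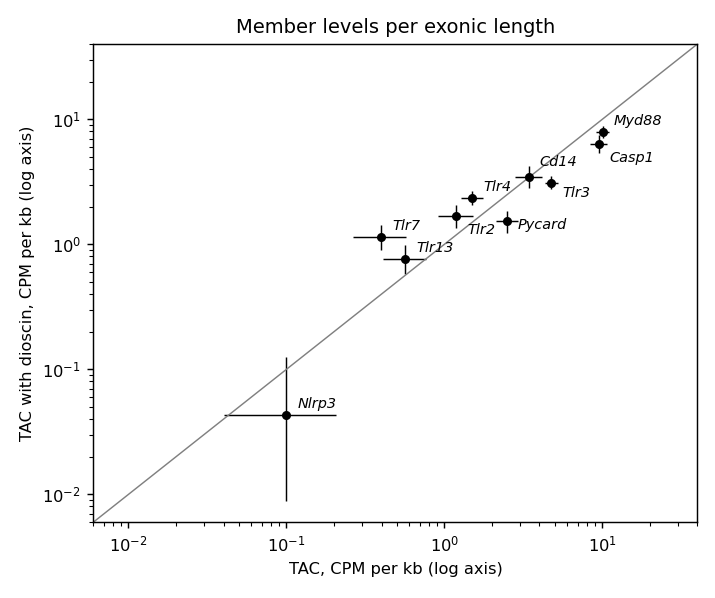
Level of each innate gene in CPM per kb of exonic length, with TAC with dioscin on the vertical and TAC on the horizontal axis (both log), with bars for 95% Poisson intervals and a line of equal level. Tlr7 lies farthest above the line, at 1.15 with dioscin against 0.397 in TAC, and Myd88 and Casp1 are highest in both libraries.

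Many genes had ratios inside the counting intervals of innate genes, a number that grows with the width of the interval. Such a number does not measure how common a ratio is. Within the counting interval of Tlr7 lay the ratios of 1599 of the 15697 genes, within that of Tlr4 those of 3349, and within that of Tlr3 those of 2452. With only 1 ratio per gene, likeness to a member therefore singles out no gene.

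Leukocyte markers moved in several directions beside these genes. For the calls in the marker lists below, the shares over all genes at 1 CPM were 10.5% higher and 8.77% lower. The 14 macrophage markers summed to 476 CPM in the dioscin library and 280 CPM in the TAC library, with 2 higher, 1 lower and none at 0. C1qa, a complement gene of resident macrophages, had a ratio of 1.59 (1.45 to 1.74), C1qb, its partner, 1.57 (1.43 to 1.73), and Csf1r, the receptor for the macrophage growth factor, 1.104 (1.01 to 1.21). Other genes of the list lay far from these. Lyve1 and Cd163, both listed here as macrophage markers, were 9.67-fold higher (8.10 to 11.7) and 3.83-fold higher (3.33 to 4.42). Together they made up much of the difference in the sum. Fcgr1, an Fc receptor, was 2.24-fold lower (1.54 to 3.36) and Aif1 had a ratio of 0.502 (0.355 to 0.697). Timd4 and Mertk of the same list had intervals that included 1, with ratios of 0.799 (0.477 to 1.32) and 1.03 (0.905 to 1.18). The 5 general leukocyte markers summed to 81.7 CPM with dioscin and 99.8 CPM in TAC, and none was at 0. They did not move together. Ptprc (CD45) had a ratio of 0.642 (0.561 to 0.734) and Coro1a, an actin-binding protein of leukocytes, was 2.29-fold lower (1.94 to 2.71), whereas Laptm5 had a ratio of 1.299 (1.12 to 1.51), Fcer1g 1.33 (1.104 to 1.62) and Tyrobp 1.01 (0.815 to 1.26). Their median log2 ratio was 0.02. The 6 monocyte markers summed to 19.6 CPM with dioscin and 23.3 CPM in TAC, with Ccr2 4.01-fold lower (3.097 to 5.32), Hp 6.11-fold higher (4.02 to 10.02) and none at 0. The 8 neutrophil markers summed to 6.43 CPM with dioscin and 20.8 CPM in TAC, with 3 at 1 CPM, all lower, and Ly6g at 0 in both libraries. The 6 B cell markers summed to 3.86 CPM with dioscin and 17.1 CPM in TAC, with 5 at 1 CPM, all lower. The 7 dendritic cell markers summed to 45.8 CPM with dioscin and 94.1 CPM in TAC, with 3 at 1 CPM and 2 of these lower. The most abundant of the list, Zbtb46, is also made by endothelial cells, however. Zbtb46 alone gave 29.5 CPM of the sum with dioscin and 77.4 CPM in TAC. Itgax was the other gene called lower, 6.87-fold (4.03 to 13.4). Clec9a, the remaining gene at 1 CPM, went the other way, with a ratio of 1.49 (1.21 to 1.84). Fibroblast markers summed to 3260 CPM with dioscin and 1129 CPM in TAC, with 3 of 7 higher, and endothelial markers to 1497 CPM with dioscin and 1465 CPM in TAC, with 2 of 7 higher and 1 lower. The part of these cell types in the ratios of the innate genes was not tested.

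**Figure D4:**
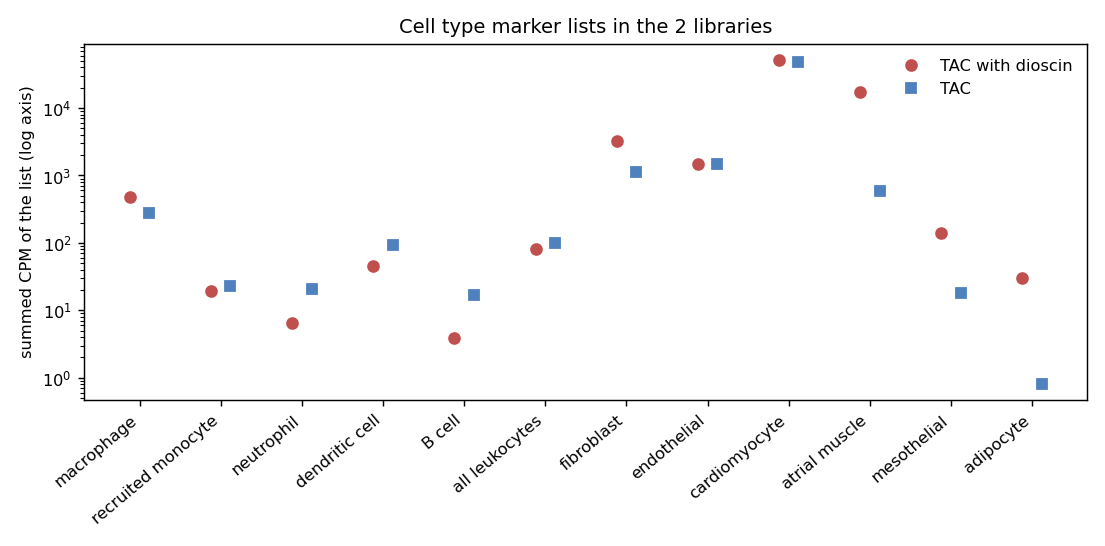
Summed CPM (log axis) of each cell type marker list in TAC with dioscin (circles, left) and TAC (squares, right). Neutrophil and B cell lists were lower with dioscin (neutrophil 6.43 CPM with dioscin against 20.8 CPM in TAC, B cell 3.86 CPM with dioscin against 17.1 CPM in TAC), and atrial, mesothelial and adipocyte lists were higher.

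The wider pathway was described with 7 lists of 97 genes in all, of which 83 reached 1 CPM. With dioscin 9 of these were higher and 13 lower, or 26.5% past the size rule beside 19.3% of all genes. With the scaling outside the mitochondrial genome the counts were 6 higher and 23 lower, beside 7.71% and 13.8% of all genes under that scaling. Several calls lay close to the 2-fold limit, as the values show. The other Toll-like receptors were scarce, and 4 of 7 reached 1 CPM. Tlr1, the lipoprotein co-receptor of TLR2, had 29 counts with dioscin and 84 in TAC and was 2.84-fold lower (1.86 to 4.54). Tlr6, its alternative partner, had 14 counts with dioscin and 24 in TAC and a ratio of 0.597 (0.281 to 1.18), and Tlr8, a single-stranded RNA receptor, had 18 counts with dioscin and 12 in TAC, a ratio of 1.49 (0.6897 to 3.44). The flagellin receptor Tlr5 had 14 counts with dioscin and 27 in TAC, a ratio of 0.532 (0.254 to 1.03). Tlr2 and Tlr1, whose products act as a pair, thus had ratios on opposite sides of 1. The interval of Tlr2 excluded 1 only under some scalings.

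Of the 9 accessory and trafficking genes, 2 were higher and 1 lower, beside 10.5% and 8.77% of all genes. Lbp, the plasma protein that carries lipopolysaccharide to CD14, had 298 counts with dioscin and 90 in TAC and was 3.33-fold higher (2.63 to 4.28). Cd36, a fatty acid transporter that also assists TLR2, was 2.66-fold higher (2.59 to 2.72). Cd180, a TLR4-like receptor of B cells, had 9 counts with dioscin and 21 in TAC and was 2.24-fold lower (1.02 to 5.74), and it passed 1 CPM in the TAC library alone. Ly96 (MD-2), which TLR4 needs to bind lipopolysaccharide, had 42 counts with dioscin and 52 in TAC, a ratio of 0.817 (0.529 to 1.25), beside the ratio of 1.56 of Tlr4. Hsp90b1 (gp96), the chaperone that folds most Toll-like receptors, had a ratio of 0.836 (0.795 to 0.878), its partner Cnpy3 0.928 (0.7897 to 1.09) and Ly86, the partner of CD180, 0.969 (0.691 to 1.36). Unc93b1, the chaperone that brings TLR3, TLR7 and TLR13 to endosomes, had 429 counts with dioscin and 745 in TAC and a ratio of 0.581 (0.515 to 0.655), beside 2.85 for Tlr7 and 0.655 for Tlr3.

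Of the 19 adaptors, kinases and ligases below the receptors, 1 was lower and none was higher (median log2 ratio -0.35), beside the same shares of all genes. Irf7, the factor that turns on interferon genes after TLR7 and TLR9 signalling, had 494 counts with dioscin and 1210 in TAC and was 2.43-fold lower (2.18 to 2.701). The kinase gene Map3k7 (TAK1) had a ratio of 0.703 (0.659 to 0.750), Irak1, the kinase that MYD88 recruits, 0.787 (0.734 to 0.843) and Irf3, which acts after TLR3 and TLR4, 0.642 (0.595 to 0.693). Ikbkb, the kinase that releases NF-kappaB, had a ratio of 0.827 (0.766 to 0.892). Of the 9 negative regulators, 8 reached 1 CPM, and 1 was higher and 1 lower, beside 10.5% and 8.77% of all genes. Nfkbia, which encodes the NF-kappaB inhibitor and is itself induced by NF-kappaB, was 2.18-fold higher (1.998 to 2.38), and Il1rl1 (ST2) was 2.19-fold lower (1.42 to 3.49). Tollip, which restrains the IRAK kinases, had a ratio of 1.37 (1.23 to 1.53), the deubiquitinase genes Otulin and Cyld had 1.57 (1.34 to 1.83) and 0.952 (0.8397 to 1.08), and Sigirr, an inhibitory receptor, had 0.574 (0.473 to 0.693).

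Of 24 other inflammasome genes, 19 reached 1 CPM, and 3 were higher and 3 lower beside 10.5% and 8.77% of all genes. With the scaling outside the mitochondrial genome 2 were higher and 5 lower, beside 7.71% and 13.8% of all genes under that scaling. Il1b, an interleukin that caspase-1 matures, had 16 counts or 0.935 CPM in the dioscin library, against 78 counts or 4.52 CPM in the TAC library. It was 4.72-fold lower (2.797 to 8.87). Naip5, a sensor of bacterial flagellin, was 2.88-fold lower (2.37 to 3.55) and Nlrp1b, another inflammasome sensor, 2.796-fold lower (1.88 to 4.34), with the reservation that both have close paralogs that could share reads. Txnip, a thioredoxin-binding protein that has been linked to NLRP3, had 17506 counts with dioscin and 3863 in TAC and was 4.57-fold higher (4.42 to 4.74), with an opposite-strand predicted gene over 19.4% of its exonic length. Ninj1, which ruptures the membrane of dying cells, was 2.39-fold higher (2.08 to 2.75), and Nek7, the kinase that NLRP3 binds, 2.02-fold higher (1.82 to 2.24). The pore former Gsdmd had a ratio of 0.746 (0.669 to 0.831) and Casp8, a protease of cell death, 0.6896 (0.596 to 0.797). Brcc3, which removes ubiquitin from NLRP3, had 1.07 (0.918 to 1.25) and Casp4 0.9704 (0.8198 to 1.15). Il18, another caspase-1 substrate, had 22 counts with dioscin and 18 in TAC, a ratio of 1.23 (0.631 to 2.44). Il1b, Pycard and Casp1 were therefore less abundant with dioscin while Nek7, Txnip and Ninj1 were more abundant.

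The cytosolic nucleic acid and NOD sensors were the list with one direction throughout. All 11 had a ratio below 1, with a median log2 ratio of -0.96 beside 0.01 over all genes at 1 CPM. Of the 11, 10 had an interval below 1, beside 32.1% of all genes. By the size rule 5 were lower, beside 8.77% of all genes. Ddx58 (RIG-I), a sensor of viral RNA, had 465 counts with dioscin and 983 in TAC and was 2.09-fold lower (1.87 to 2.34). Eif2ak2 (PKR), a kinase that senses double-stranded RNA, was 2.105-fold lower (1.82 to 2.44), Zbp1, a Z-form nucleic acid sensor, 2.13-fold (1.599 to 2.89), Dhx58 (LGP2) 2.02-fold (1.56 to 2.64) and Tmem173 (STING) 2.002-fold (1.62 to 2.501). Ifih1 (MDA5) had a ratio of 0.731 (0.625 to 0.853), Nod1, a sensor of bacterial cell wall, 0.672 (0.615 to 0.733), Ripk2, the kinase it uses, 0.789 (0.622 to 0.999) and Mavs, the adaptor of RIG-I, 0.817 (0.704 to 0.948). Among the innate genes at 1 CPM, Tlr3 (0.655), Pycard (0.610), Casp1 (0.672) and Myd88 (0.787) were in the range of this list. The others, Tlr7 among them, were not.

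Of the 19 genes known to be induced by NF-kappaB, 14 reached 1 CPM, and 3 were higher and 2 lower beside 10.5% and 8.77% of all genes. The counts were 2 higher and 6 lower with the scaling outside the mitochondrial genome, beside 7.71% and 13.8% of all genes under that scaling. Lcn2, which binds iron carriers, had 182 counts with dioscin and 13 in TAC and was 13.6-fold higher (8.06 to 27.04), the adhesion gene Vcam1 was 3.45-fold higher (3.02 to 3.96) and Sod2, the mitochondrial superoxide dismutase, 2.08-fold higher (1.99 to 2.18). Besides Il1b, the neutrophil chemokine gene Cxcl1 was lower, 2.75-fold (1.81 to 4.36), with 30 counts in the dioscin library and 84 in the TAC library. Nfkb1 and Nfkb2, which encode NF-kappaB subunits, had ratios of 0.784 (0.7099 to 0.865) and 0.563 (0.493 to 0.642), Icam1 had 1.36 (1.22 to 1.51) and Nfkbiz, an atypical NF-kappaB inhibitor protein, 0.594 (0.514 to 0.684). Tnf had 6 counts with dioscin and 17 in TAC, below 1 CPM in both libraries.

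**Figure D5:**
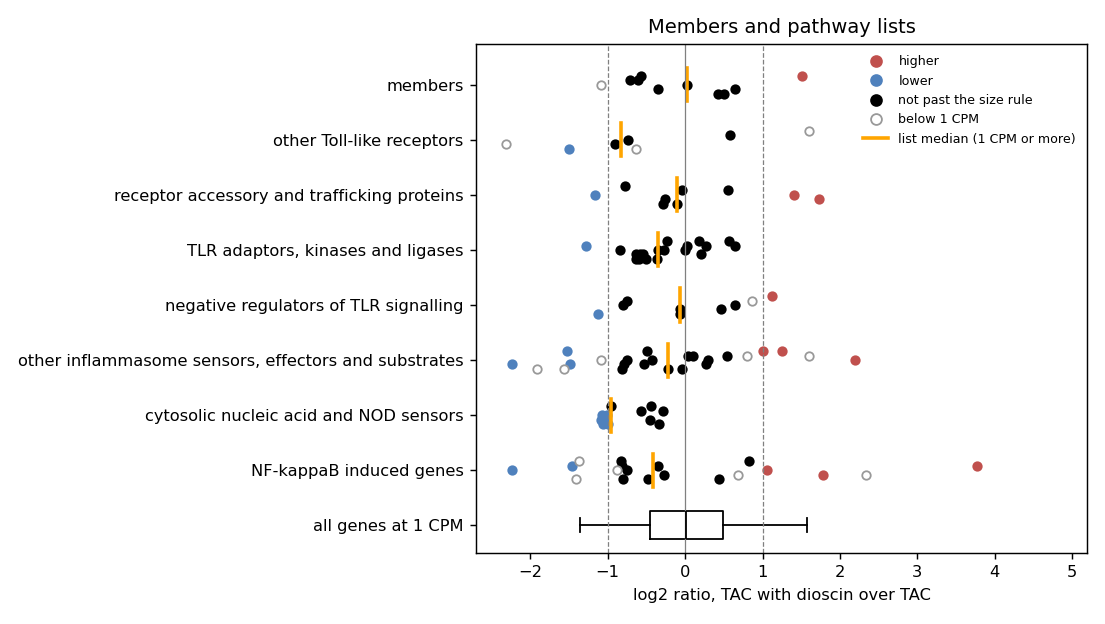
Log2 ratio, TAC with dioscin over TAC, of each gene in the innate set and the 7 pathway lists, with orange bars for list medians, open points for genes below 1 CPM, and a box for all 15697 genes at 1 CPM (quartiles, whiskers at the 5th and 95th percentile). The cytosolic sensors all lie below 0, with a median of -0.96, and the innate set spreads over both sides of 0.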

How the data were processed

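Raw counts of reads per gene, deposited by the authors, were used for the 2 heart libraries. They came from HISAT2 2.1.0 and HTSeq on mm10, per the submitters' processing notes, while the annotation release and strand setting are not given in the sources used here. Per the labels' protocols, Trizol RNA of frozen hearts went into a TruSeq RNA kit; strand is not marked by it. The 5 HTSeq lines for reads given to no gene (71.5% of all lines' counts in the dioscin library and 73.8% in the TAC library) were left out. Identifiers were matched without version to GENCODE M21 on GRCm38 (55141 of 55401). Counts were scaled by TMM (edgeR 4.0.16, R 4.3.3) to CPM. Ratios are dioscin over TAC with a pseudocount of 0.5, and their exact 95% Clopper-Pearson limits and the Poisson limits of levels cover counting error only, since PCR copies were not told apart. No p-value was computed. Genes named were all members, every list gene past the size rule and up to 4 others per list by abundance, and of marker lists up to 3 by abundance. Ly96, Il18, Tnf, Il1rap, Il18rap, Tyrobp, Fcer1g and markers at 0 were added after their values were seen. So were Lyve1, Cd163, Fcgr1, Aif1, Timd4 and Mertk of the macrophage list. The members, lists, motifs and alternatives were chosen with earlier results of these data known. Calls were checked on simulated counts with known folds. Alternatives were 4 scalings (total counts, DESeq2 1.42.0 size factors, totals without mitochondrial genes, upper quartile), other pseudocounts and filters, and a 1.5-fold limit.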

Additional observations from a re-analysis of the deposited data

How the results depend on the processing

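No paired analysis was possible because each group had 1 library, and no library could be left out. Under the 4 other scalings Tlr7 alone passed as higher among the 10 genes and none as lower, and the sign of the log2 ratio turned for Cd14 alone among the 10. The log2 ratio of Tlr7, 1.51, took values from 1.31 to 1.53 over the scalings and pseudocounts. With a filter of 5 CPM, 0 of the 10 genes were higher, since Tlr7 stayed under 5 CPM in both libraries. With a limit of 1.5-fold, 2 were higher and 2 lower, beside 20.3% and 17.9% of all genes. The number of pathway list genes lower, 13 by the size rule, was 23 when scaled without mitochondrial genes, 8 with the 5 CPM filter and 29 at 1.5-fold, and the share of all genes lower, 8.77%, was 13.8% without mitochondrial genes and 5.84% with the 5 CPM filter. Among the pathway list genes called higher, Nek7 fell under 2-fold with each of the 4 other scalings, Sod2 with total counts and without mitochondrial genes, and Nfkbia without mitochondrial genes. Scara3, Fn1 and Hspa1a, described in the next section, also fell under 2-fold without mitochondrial genes. Of 44 recomputed counts and shares over the 10 genes, all list genes together or all genes, 34 stayed within 1.5 times. Of the log2 ratios of the 10 genes and the counts of single lists, 141 stayed and 17 moved, all 17 being list counts (such as NF-kappaB induced genes lower, 2 by the size rule and 6 without mitochondrial genes) and none of them under total-count, DESeq2 or upper quartile scaling or another pseudocount. At this depth the floor of 3 counts is 0.175 CPM in the dioscin library and 0.174 CPM in the TAC library, so that Nlrp3, Tlr9, Tlr11 and Tlr12 could not be compared.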

Other observations

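Receptors and ligands outside the Toll-like and inflammasome families were listed after the data had been seen, and carry no test. Among 14 scavenger receptors, 12 of which reached 1 CPM, 5 were higher with dioscin and 1 lower, beside 10.5% and 8.77% of all genes. Besides Cd36, they were Scarb2, a lysosomal membrane protein, 2.91-fold higher (2.705 to 3.14), Scara5, a ferritin receptor of stromal cells, 3.90-fold (3.29 to 4.66), Cd163, the haemoglobin receptor of resident macrophages, 3.83-fold (3.33 to 4.42), and Scara3, 2.15-fold (1.57 to 2.999), while Scarf1, an endothelial receptor, was 2.71-fold lower (2.47 to 2.96). Stab1 had a ratio of 0.998 (0.946 to 1.05), Scarb1 0.609 (0.536 to 0.692), Scarf2 0.901 (0.788 to 1.03) and Cd68 1.01 (0.803 to 1.27). Among 13 C-type lectin receptors, 9 of which reached 1 CPM, 2 were higher and none lower, beside the same shares of all genes. Clec4d, a receptor of myeloid cells for mycobacterial lipids, had 53 counts with dioscin and 14 in TAC and was 3.72-fold higher (2.09 to 7.45). Colec12 was 2.35-fold higher (1.99 to 2.798). The mannose receptor Mrc1 had a ratio of 1.34 (1.21 to 1.49), Mrc2 0.754 (0.668 to 0.849), Clec1a 1.17 (1.03 to 1.33) and Clec7a (dectin-1) 0.724 (0.521 to 0.996).

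A list of 14 formyl peptide, alarmin and purine receptors, with interleukin receptors among them, had 11 genes at 1 CPM. Of these, 1 was higher and none lower, beside 10.5% and 8.77% of all genes. Of the interleukin receptors that share MYD88 with the Toll-like receptors, Il18r1 had 142 counts with dioscin and 22 in TAC. It was the gene called higher, 6.39-fold (4.14 to 10.7). Its partner Il18rap had 37 counts with dioscin and 62 in TAC, a ratio of 0.605 (0.389 to 0.919). Il1r1, the interleukin-1 receptor, had 610 counts with dioscin and 999 in TAC, a ratio of 0.616 (0.556 to 0.682), and its partner Il1rap had 122 counts with dioscin and 65 in TAC, a ratio of 1.89 (1.39 to 2.60). Among purine receptors, P2rx4 had a ratio of 0.886 (0.774 to 1.01), P2rx7 0.857 (0.712 to 1.03) and P2ry2 1.17 (0.996 to 1.39). Of 15 proteins described as endogenous ligands of Toll-like receptors, 13 reached 1 CPM, and 5 were higher and 2 lower, beside the same shares of all genes. The matrix proteoglycan genes Dcn and Bgn were 4.09-fold (3.96 to 4.23) and 2.57-fold (2.46 to 2.69) higher, Lgals3 8.17-fold (6.81 to 9.95), Fn1 2.29-fold (2.103 to 2.504) and Hspa1a, which has a near-identical copy, 2.302-fold (1.65 to 3.28). The alarmin genes S100a8 and S100a9 were 3.21-fold (1.699 to 6.92) and 4.295-fold (2.73 to 7.29) lower. Both are also neutrophil markers, and Csf3r, another gene of that marker list, had 54 counts with dioscin and 184 in TAC and was 3.36-fold lower (2.48 to 4.66). The nuclear alarmin Hmgb1 had a ratio of 1.64 (1.51 to 1.78), its relative Hmgb2 1.22 (1.06 to 1.41), the chaperone gene Hspd1 1.601 (1.49 to 1.72) and the matrix gene Vcan 0.871 (0.758 to 1.002).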
